A study of Homo sapiens with 18 samples.

Results

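The DNA damage checkpoint and end joining genes described here are 32 listed genes of ATM and ATR checkpoint signaling, of ubiquitin signaling at DNA breaks and of non-homologous end joining. They were taken by symbol from a fixed list, with no threshold on a measured value, and each matched 1 of the 58884 gene identifiers in the count files. By role, 2 belong to the ATM arm, 8 to the activation of ATR, 4 to the fork mediators and their kinase CHEK1, 3 to the control of cyclin-dependent kinases (CDKs), 7 to signaling at the break and 8 to end joining itself.

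The study sequenced polyadenylated RNA of T47D, an estrogen receptor-positive luminal breast cancer cell line, to ask how the poly(ADP-ribose) polymerase (PARP) inhibitors niraparib and olaparib act with and without PARP1. Cells labelled WT (line T47D AAV) and cells labelled PARP1 KO (line T47D JL) each received DMSO, niraparib at 10 μmol/L or olaparib at 10 μmol/L for 48 hours. Each of the 6 groups had 3 libraries, 18 in all. There was 1 line per genotype. The sources used here do not say what AAV and JL stand for or whether the PARP1 KO line is a clone. For omics work the study's methods describe 3 dishes per condition, without saying that each library came from its own dish, so P values measure the spread between these libraries, which may be technical.

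When DNA breaks, the kinase ATM phosphorylates CHEK2 and the histone next to the break, and a relay of MDC1, RNF8 and RNF168 builds ubiquitin marks that recruit TP53BP1 and RIF1. When replication forks stall, ATR is activated on single-stranded DNA and, through the mediator claspin, switches on CHEK1, which holds back CDC25 phosphatases while WEE1 and PKMYT1 keep CDKs inhibited. PARP inhibitors hold PARP enzymes on DNA and so load both pathways. Non-homologous end joining, which religates ends bound by the Ku heterodimer, competes with homologous recombination for the same breaks.

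Between 28890837 and 52251288 reads were counted on genes per library. PARP1 had 337 ± 26.95 CPM in the 9 WT libraries and 25.1 ± 1.38 CPM in the 9 PARP1 KO libraries (SD, n = 9), with no overlap (exact permutation test, 2-sided P = 4.1e-05). CPM are counts scaled to a common total, corrected for library composition (trimmed mean of M values, TMM). All 8 markers of luminal epithelium were present, with ESR1 at 112 to 176 CPM and the list summing to between 8835 and 14400 CPM in a library. Of 9 markers of fibroblasts, leukocytes and endothelium, 8 were below 1 CPM in every library and COL1A1 lay between 88.3 and 153 CPM. WT DMSO replicate 1, WT niraparib replicate 2 and PARP1 KO niraparib replicate 3 stood apart from the other replicates of their groups. Their counts differed from those of the other replicates by a chi-square per gene between 10.7 and 17.3, against 3.002 to 3.24 for the remaining pairs of these groups. PARP1 KO DMSO replicate 3 differed from the others by 9.68 and 5.36, against 3.01 for the remaining pair, and replicates of PARP1 KO olaparib by 7.54 to 16.6.

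Among the listed genes themselves, abundance spanned a wide range in untreated WT cells. Per kilobase of exon that could be counted (RPKM), the Ku subunits led, XRCC6 at 107 ± 6.69 and XRCC5 at 69.2 ± 4.35 RPKM (SD, n = 3). PRKDC, the catalytic subunit of the DNA-dependent protein kinase, followed at 44.3 ± 2.21 RPKM, then the fork protein TIMELESS at 43.7 ± 0.401 and the Ku-binding factor PAXX at 37.4 ± 3.04. CLSPN, which encodes claspin, had 1.99 ± 0.0444 RPKM, below every other listed gene but NHEJ1. ATM and ATR, the kinases at the head of both arms, held ranks 22 and 19 of 32 at 4.94 ± 0.556 and 5.61 ± 0.325 RPKM. The length used is that of all annotated exons, 23972 bases for ATM and 12403 for ATR. These genes had 118 and 69.6 CPM. Of the 31 pairs of neighbours in this order, 16 had libraries that overlapped, PRKDC and TIMELESS among them. NHEJ1 had 28 counts in total over 18 libraries. Of its exon bases, 65.4% also belong to other genes on its strand, where no read was counted. Its values are not interpretable, and it was not tested in PARP1 KO cells.

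**Figure D1:**
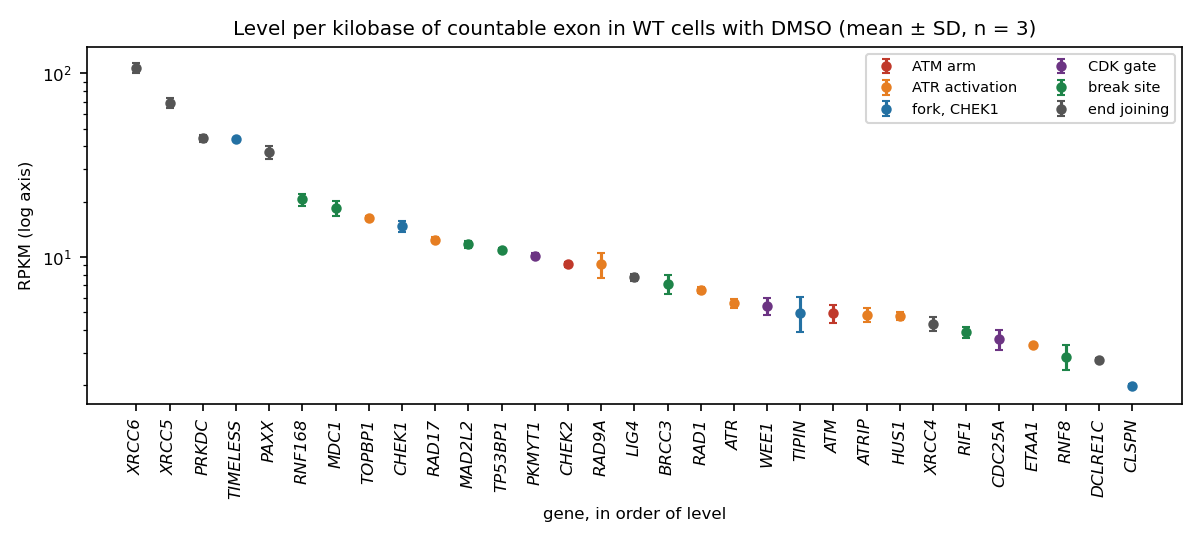
Level of 31 of the genes in WT cells with DMSO, as RPKM on a log axis, in order from left to right (points are means of 3 libraries, bars SD, colors the 6 roles, NHEJ1 not drawn). End joining genes take the 3 highest places and CLSPN, a fork mediator, the lowest at 1.99 RPKM.

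Niraparib changed genes of every role in WT cells, 1 of the ATM arm downward, fork mediators and CHEK1 upward and the other roles in both directions. A gene passed at an adjusted P value below 0.05 in edgeR's quasi-likelihood test with Benjamini-Hochberg adjustment over all genes tested, the source of every adjusted P value given; SE is the standard error of the log2 fold change. Of the 32 genes, 11 rose and 8 fell against DMSO; over all 22446 genes tested, 19.9% rose and 18.1% fell. The change exceeded 1.5-fold for 7 of the 32 (CLSPN, PKMYT1, CDC25A, TIPIN and RNF8 upward, CHEK2 and WEE1 downward), against 13.8% of all genes. The median log2 fold change was 0.028, and -0.025 over all genes. Of the fork mediators and CHEK1, 3 of 4 rose, and all 3 genes of CDK control changed, 2 upward and 1 downward. In end joining, 3 of 8 fell and 1 rose.

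Olaparib was given at the same dose for the same time. In WT cells, 7 of the 32 rose and 7 fell, against 11.2% and 7.77% of all genes. Every change stayed below 1.5-fold, where 4.04% of all genes passed both criteria, and the largest was that of PKMYT1, at 0.54 on the log2 scale. CDC25A, at 0.53, went past 1.5-fold without WT DMSO replicate 3, at 0.60. The median log2 fold change was 0.0059, and -0.017 over all genes. The log2 fold changes of CHEK1, TIMELESS, ATR, ATRIP, TP53BP1 and LIG4, among others, lay farther from 0 with olaparib than with niraparib. The niraparib and olaparib comparisons share the 3 WT DMSO libraries.

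Set directly against olaparib, niraparib gave higher levels of 13 of the 32 genes and lower levels of 7, against 16.1% and 16.2% of all genes. CHEK2, CLSPN, TIPIN, WEE1 and RNF168 differed between the drugs by more than 1.5-fold, 5 of the 32 and 8.95% of all genes. WEE1 came under 1.5-fold without WT olaparib replicate 1 (-0.56 on the log2 scale), TIPIN without WT olaparib replicate 1 (0.55) or WT niraparib replicate 3 (0.57), and CLSPN without WT olaparib replicate 3 (0.51) or WT niraparib replicate 2 (0.54). For 12 genes the drugs were not told apart; apart from NHEJ1, the 95% intervals of their log2 difference lay within -0.53 (RAD9A) and 0.38 (CDC25A). Among these 12, RAD9A passed without WT niraparib replicate 2, and CDC25A did without that library or WT olaparib replicate 2. Both passed with no filter on low counts as well, and CDC25A with RLE size factors or filterByExpr (adjusted P between 0.024 and 0.048, edgeR). ETAA1 did so without WT olaparib replicate 1.

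In PARP1 KO cells, 0 of the 31 genes tested passed with niraparib (edgeR; 0 with DESeq2 as well, and 6 at an unadjusted P value below 0.05), and 0.109% of all 22037 genes did. The 95% interval of every one of the 31 lay within a 1.5-fold change, the widest being that of PAXX from -0.38 to 0.39 on the log2 scale. TP53BP1 had the lowest adjusted P value, at 0.21 (SE 0.055, adjusted P = 0.15, edgeR), and 141, 145 and 133 CPM with DMSO and 160.1, 155 and 168 with niraparib in the KO libraries, without overlap. The niraparib libraries of ATM, MAD2L2, ETAA1 and TIMELESS also lay above those with DMSO, ATM at 0.19 (SE 0.055, adjusted P = 0.22, edgeR), MAD2L2 at 0.17 (SE 0.069, adjusted P = 0.44), ETAA1 at 0.10 (adjusted P = 0.70) and TIMELESS at 0.11 (adjusted P = 0.48). With olaparib, 2 of 31 passed, RNF168 upward and XRCC6 downward, against 8.29% of all genes. The count was 1 without PARP1 KO olaparib replicate 2 or PARP1 KO DMSO replicate 2 or 3, when RNF168 no longer passed, and 3 without PARP1 KO DMSO replicate 1, when BRCC3 passed too. ATM passed without PARP1 KO olaparib replicate 1, and RAD9A, at 0.28, with no filter on low counts (adjusted P = 0.0033, edgeR) and in DESeq2 (adjusted P = 0.046).

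The difference between genotypes was tested directly as an interaction, the drug change in PARP1 KO minus that in WT. For niraparib, 8 of the 32 genes had a higher and 10 a lower change in PARP1 KO, against 10.4% and 12.5% of all 24675 genes, and 6 differed by more than 1.5-fold, against 8.88%. These 6 were CHEK2 (higher) and CLSPN, TIPIN, PKMYT1, CDC25A and RNF8 (lower). For olaparib, 4 of the 32 passed and all were lower in PARP1 KO, against 1.35% of all genes lower and 0.912% higher. They were CDC25A, CLSPN, PKMYT1 and CHEK1, of which CDC25A exceeded 1.5-fold (0.657% of all genes did). Without PARP1 KO olaparib replicate 1 the count rose to 8, adding ATM, ATR, TP53BP1 and PRKDC, and ATM also passed without WT DMSO replicate 2 or 3. In DESeq2, TIMELESS (-0.17, adjusted P = 0.012) and ATM (0.29, adjusted P = 0.049) passed too. With no filter on low counts, ATM (0.28, adjusted P = 0.012, edgeR) and RNF8 (-0.36, adjusted P = 0.049) did. CLSPN also went past 1.5-fold without PARP1 KO olaparib replicate 2 (-0.60) or WT olaparib replicate 3 (-0.62).

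**Figure D2:**
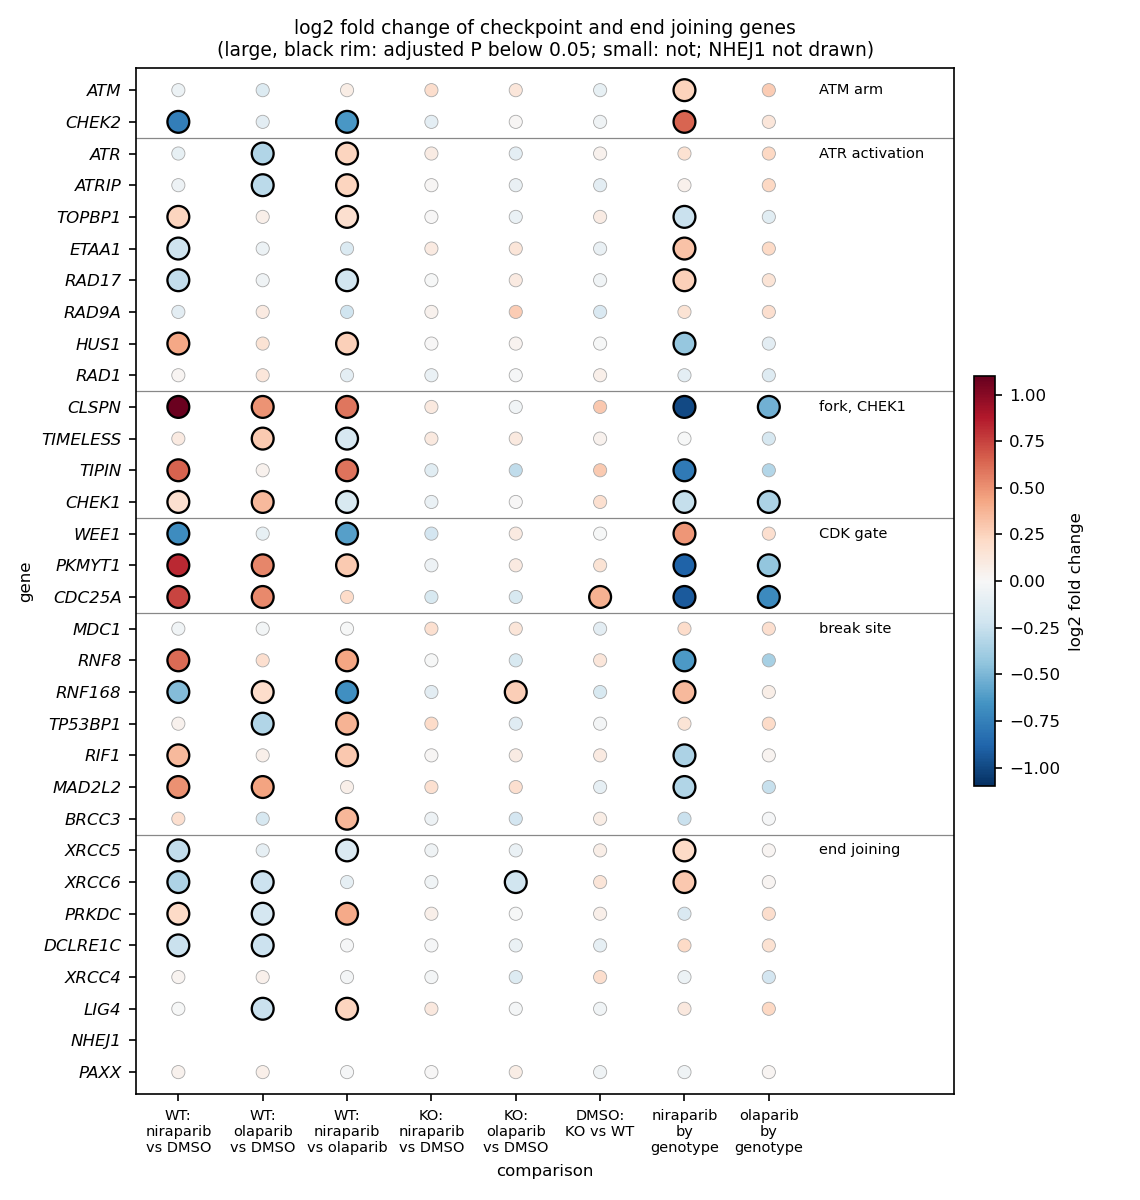
Log2 fold change of each gene (rows, by role) in 8 comparisons (columns), red for higher and blue for lower; large points with a black rim passed at an adjusted P value below 0.05. The 2 columns of PARP1 KO cells hold 0 and 2 large points for niraparib and olaparib, against 19 and 14 for the same drugs in WT cells. Over all genes, 24 and 1827 of 22037 passed in PARP1 KO cells, against 8530 and 4270 of 22446 in WT cells.

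Promoter windows of 5 genes are shown, 4 that rose with niraparib in WT cells and hold the letters of an E2F element, and CHEK2, which fell. E2F factors drive genes needed at the start of S phase. The windows come from RefSeq (GRCh38.p14), run 5′ to 3′ on the gene strand from 250 bases before the start to the first 50 of the transcript, and have the E2F letters in capitals. They lie at chr1:35769929-35770228 (CLSPN), chr15:66356636-66356935 (TIPIN), chr3:48188368-48188667 (CDC25A), chr3:133661892-133662191 (TOPBP1) and chr22:28741771-28742070 (CHEK2), all on the minus strand.
CLSPN: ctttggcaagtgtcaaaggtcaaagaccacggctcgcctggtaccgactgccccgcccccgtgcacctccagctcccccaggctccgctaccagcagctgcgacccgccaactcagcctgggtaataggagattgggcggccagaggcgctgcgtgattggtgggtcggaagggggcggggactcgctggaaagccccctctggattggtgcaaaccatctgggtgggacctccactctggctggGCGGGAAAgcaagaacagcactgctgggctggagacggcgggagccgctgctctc
TIPIN: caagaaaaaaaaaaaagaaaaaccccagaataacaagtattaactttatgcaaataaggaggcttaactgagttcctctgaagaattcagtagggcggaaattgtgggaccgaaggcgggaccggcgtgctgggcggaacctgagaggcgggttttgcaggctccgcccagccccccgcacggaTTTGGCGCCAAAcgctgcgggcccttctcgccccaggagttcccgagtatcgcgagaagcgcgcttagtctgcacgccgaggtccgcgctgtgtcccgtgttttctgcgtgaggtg
CDC25A: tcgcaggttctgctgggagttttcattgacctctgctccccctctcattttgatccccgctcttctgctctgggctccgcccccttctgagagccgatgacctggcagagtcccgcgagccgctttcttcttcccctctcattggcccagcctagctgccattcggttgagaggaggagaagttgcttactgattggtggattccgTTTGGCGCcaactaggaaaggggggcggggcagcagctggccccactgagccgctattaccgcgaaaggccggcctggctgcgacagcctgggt
TOPBP1: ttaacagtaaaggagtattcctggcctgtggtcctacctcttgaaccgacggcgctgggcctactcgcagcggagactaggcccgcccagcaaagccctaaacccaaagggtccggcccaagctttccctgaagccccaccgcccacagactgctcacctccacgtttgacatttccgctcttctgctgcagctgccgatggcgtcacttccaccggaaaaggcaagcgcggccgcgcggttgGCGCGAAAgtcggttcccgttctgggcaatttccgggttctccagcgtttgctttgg
CHEK2: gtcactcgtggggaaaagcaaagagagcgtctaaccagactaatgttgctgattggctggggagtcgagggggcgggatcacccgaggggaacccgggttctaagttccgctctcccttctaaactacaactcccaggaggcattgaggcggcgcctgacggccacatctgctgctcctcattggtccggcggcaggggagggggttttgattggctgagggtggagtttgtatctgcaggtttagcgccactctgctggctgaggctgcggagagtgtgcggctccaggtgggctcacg
The letters searched on both strands were TTTCCCGC, TTTGGCGC, TTTCGCGC and TTTGCCGC. In TIPIN a copy on each strand overlaps, which makes a longer capital run. Where a gene with the letters had several windows, only those that hold them were shown. TIPIN has another window at chr15:66386668-66386967, which lacks them. Of the 41 windows of 27 genes, 5 (12.2%) held such letters, those of the 4 genes above and of XRCC6, which fell with niraparib, while 3.31% of all 35116 windows of the table held them. Of 8 genes with a window that rose with niraparib in WT cells, 4 held the letters, and of 6 that fell, 1 did. Another motif, TTTGAA, known as the CHR element of genes peaking in G2 and M phase, stood in 4 windows, those of ATM, MDC1, RAD17 and RIF1 (9.76%, against 15.2% of all windows), and CCAAT in 27 windows of 20 genes (65.9%, against 34.6%). No window was at hand for XRCC5, PKMYT1, WEE1, HUS1 and PRKDC. A match describes letters only.

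In the ATM arm, the transcript of the effector kinase CHEK2 fell with niraparib while that of ATM itself did not pass. CHEK2 (ENSG00000183765, chromosome 22 from 28687743 to 28742422, minus strand, GRCh38) had 42.4, 39.9 and 41.1 CPM in the WT DMSO libraries, 24.8, 24.2 and 24.01 with niraparib and 36.4, 38.97 and 38.4 with olaparib. The niraparib libraries lay far below all others and the olaparib libraries just below DMSO, without overlap. The log2 fold change was -0.76 (SE 0.058, adjusted P = 7.6e-10) with niraparib and -0.11 (SE 0.057, adjusted P = 0.18) with olaparib, and -0.64 (SE 0.058, adjusted P = 2.0e-08) between the drugs. CHEK2 in PARP1 KO cells had 40.1, 37.4 and 41.6 CPM with DMSO, 37.6, 36.9 and 35.6 with niraparib and 38.6, 42.6 and 39.2 with olaparib, with each drug overlapping DMSO. Its niraparib interaction was 0.64 (SE 0.085, adjusted P = 2.9e-07). ATM had 118 ± 13.3 CPM with DMSO and 113 ± 4.37 with niraparib in WT cells (SD, n = 3), a log2 fold change of -0.07 (SE 0.064, adjusted P = 0.47). The PARP1 KO means were 111 ± 1.67 and 126 ± 4.99 CPM. The ATM interaction of 0.25 (SE 0.086, adjusted P = 0.033) passed narrowly and was lost when any 1 of 8 libraries was left out, with an adjusted P value of up to 0.17 without WT DMSO replicate 1. These libraries were all 3 of PARP1 KO DMSO, PARP1 KO niraparib replicates 1 and 3, WT niraparib replicates 1 and 3 and WT DMSO replicate 1. CHEK2 has 7 pseudogenes by name, whose counts came to 0.0327% of its own.

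Among the 8 genes that activate ATR, niraparib raised TOPBP1 and HUS1 and lowered RAD17 and ETAA1 in WT cells, and olaparib lowered the kinase and its partner, ATR and ATRIP. TOPBP1, which switches ATR on (ENSG00000163781, chromosome 3 from 133598175 to 133662380, minus strand), had 117, 119 and 123 CPM with DMSO, 141, 142 and 143 with niraparib and 125, 129.6 and 119 with olaparib. The niraparib libraries stood above both other groups, which overlapped each other. The change was 0.25 (SE 0.046, adjusted P = 1.5e-04) with niraparib and 0.06 (SE 0.046, adjusted P = 0.40) with olaparib. Values in PARP1 KO cells were 130.1, 124 and 127 CPM with DMSO, 127, 129 and 126 with niraparib and 117, 124 and 122 with olaparib, each drug overlapping DMSO, and the niraparib interaction was -0.25 (SE 0.065, adjusted P = 0.0044).

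HUS1, a subunit of the checkpoint clamp made with RAD9A and RAD1, rose from 19.9 ± 1.02 to 26.7 ± 2.12 CPM (SD, n = 3), by 0.43 (SE 0.080, adjusted P = 1.7e-04), and its interaction was -0.43 (SE 0.11, adjusted P = 0.0037). RAD17, which loads that clamp, fell from 51.6 ± 1.61 to 42.9 ± 1.18 CPM, at -0.27 (SE 0.052, adjusted P = 2.3e-04), with an interaction of 0.26 (SE 0.075, adjusted P = 0.0084). ETAA1, the other activator of ATR, fell, at -0.23 (SE 0.068, adjusted P = 0.010), with an interaction of 0.32 (SE 0.092, adjusted P = 0.0083). The loader and a clamp subunit thus moved in opposite directions. RAD9A and RAD1 passed in no comparison, though RAD9A did in some under other settings; with niraparib in WT cells RAD9A was at -0.12 (SE 0.14, adjusted P = 0.56), and passed without WT niraparib replicate 2, while RAD1 was at 0.03 (SE 0.054, adjusted P = 0.76). ATR averaged 69.6 ± 4.03 CPM untreated, 65.5 ± 3.72 under niraparib and 55.3 ± 0.646 under olaparib, every olaparib library below every other WT library. The olaparib change was -0.33 (SE 0.055, adjusted P = 1.8e-04), against -0.09 (SE 0.054, adjusted P = 0.23) with niraparib, which passed without WT niraparib replicate 2. ATRIP, which brings ATR to single-stranded DNA, fell with olaparib, at -0.30 (SE 0.083, adjusted P = 0.013), and lost its call without WT DMSO replicate 1 or WT olaparib replicate 2 (adjusted P = 0.051 in each, edgeR). For both, niraparib and olaparib differed, ATR by 0.24 (SE 0.055, adjusted P = 0.0015) and ATRIP by 0.25 (SE 0.083, adjusted P = 0.026). The ATRIP difference was lost without any 1 of the WT olaparib libraries or WT niraparib replicate 2 (adjusted P up to 0.15, edgeR), and that of HUS1, 0.27 (SE 0.080, adjusted P = 0.013), without WT olaparib replicate 2 or 3 or WT niraparib replicate 2 (up to 0.10). Other genes of the same strand share 26.7% of ATRIP's exon bases.

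The fork mediators carried the largest niraparib change of the 32 genes. CLSPN, the mediator through which ATR reaches CHEK1 (ENSG00000092853, chromosome 1 from 35720218 to 35769978, minus strand), had 18.6, 19.4 and 19.2 CPM with DMSO, 39.4, 43.2 and 39.04 with niraparib and 29.7, 27.1 and 23.5 with olaparib in WT cells. The 3 groups did not overlap, with olaparib between DMSO and niraparib. The log2 fold change was 1.09 (SE 0.075, adjusted P = 1.6e-10) with niraparib and 0.49 (SE 0.076, adjusted P = 7.8e-05) with olaparib, and the drugs differed by 0.59 (SE 0.074, adjusted P = 1.6e-06). With PARP1 KO the values were 24.9, 22.8 and 22.5 CPM with DMSO, 22.6, 24.9 and 27.4 with niraparib and 21.3, 24.9 and 22.1 with olaparib. Here the 3 groups overlapped, and all 9 libraries lay above the WT DMSO libraries. The interaction was -0.99 (SE 0.11, adjusted P = 1.6e-08) for niraparib and -0.53 (SE 0.11, adjusted P = 0.0073) for olaparib.

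TIPIN and TIMELESS, which form a complex that keeps the helicase and polymerase together, did not move alike. TIPIN (ENSG00000075131, chromosome 15 from 66336191 to 66386746, minus strand) had 8.07, 12.4 and 11.8 CPM with DMSO, 16.1, 17.1 and 17.7 with niraparib and 10.4, 11.5 and 11.7 with olaparib. The niraparib libraries lay above both other groups, and 1 DMSO library, replicate 1, stood well below its group. TIPIN changed by 0.64 (SE 0.12, adjusted P = 2.5e-04) with niraparib, by 0.49 and so under 1.5-fold without WT DMSO replicate 1, and by 0.04 (SE 0.12, adjusted P = 0.86) with olaparib. Values in PARP1 KO cells were 13.5, 12.5 and 13.7 CPM with DMSO, 11.003, 12.1 and 13.2 with niraparib and 10.4, 11.4 and 11.002 with olaparib. The olaparib libraries were below the DMSO libraries without overlap, at -0.28 (SE 0.093, adjusted P = 0.068), which did not pass. Its niraparib interaction was -0.77 (SE 0.15, adjusted P = 1.3e-04). Exon bases shared with other genes of the strand come to 21.1% for TIPIN. TIMELESS instead averaged 256 ± 2.35 CPM untreated, 275 ± 9.46 under niraparib and 312 ± 2.88 under olaparib (SD, n = 3). It rose with olaparib, by 0.29 (SE 0.045, adjusted P = 7.2e-05). With niraparib its change was 0.10 (SE 0.045, adjusted P = 0.079), which passed without WT niraparib replicate 3. That change also passed in DESeq2 (adjusted P = 0.049) and without both WT DMSO replicate 1 and WT niraparib replicate 2 (adjusted P = 0.035, edgeR). Its niraparib level was below that with olaparib, at -0.19 (SE 0.045, adjusted P = 0.0021).

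CHEK1, the effector kinase of the ATR arm, rose with both drugs, from 95.3 ± 6.36 CPM to 108 ± 3.54 with niraparib and 122 ± 4.24 with olaparib. The changes were 0.18 (SE 0.053, adjusted P = 0.0088) and 0.36 (SE 0.053, adjusted P = 5.3e-05). The lower level with niraparib than with olaparib, -0.17 (SE 0.053, adjusted P = 0.014), was lost without WT olaparib replicate 1 (adjusted P = 0.072, edgeR) or 2 (0.056). PARP1 KO cells had 108 ± 2.47, 102 ± 5.22 and 108 ± 2.12 CPM of CHEK1 in the same order, and the interactions were -0.27 (SE 0.074, adjusted P = 0.0065) for niraparib and -0.35 (SE 0.074, adjusted P = 0.0058) for olaparib. The effector kinases of the arms, CHEK1 and CHEK2, thus stood on opposite sides of DMSO with niraparib in WT cells.

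**Figure D3:**
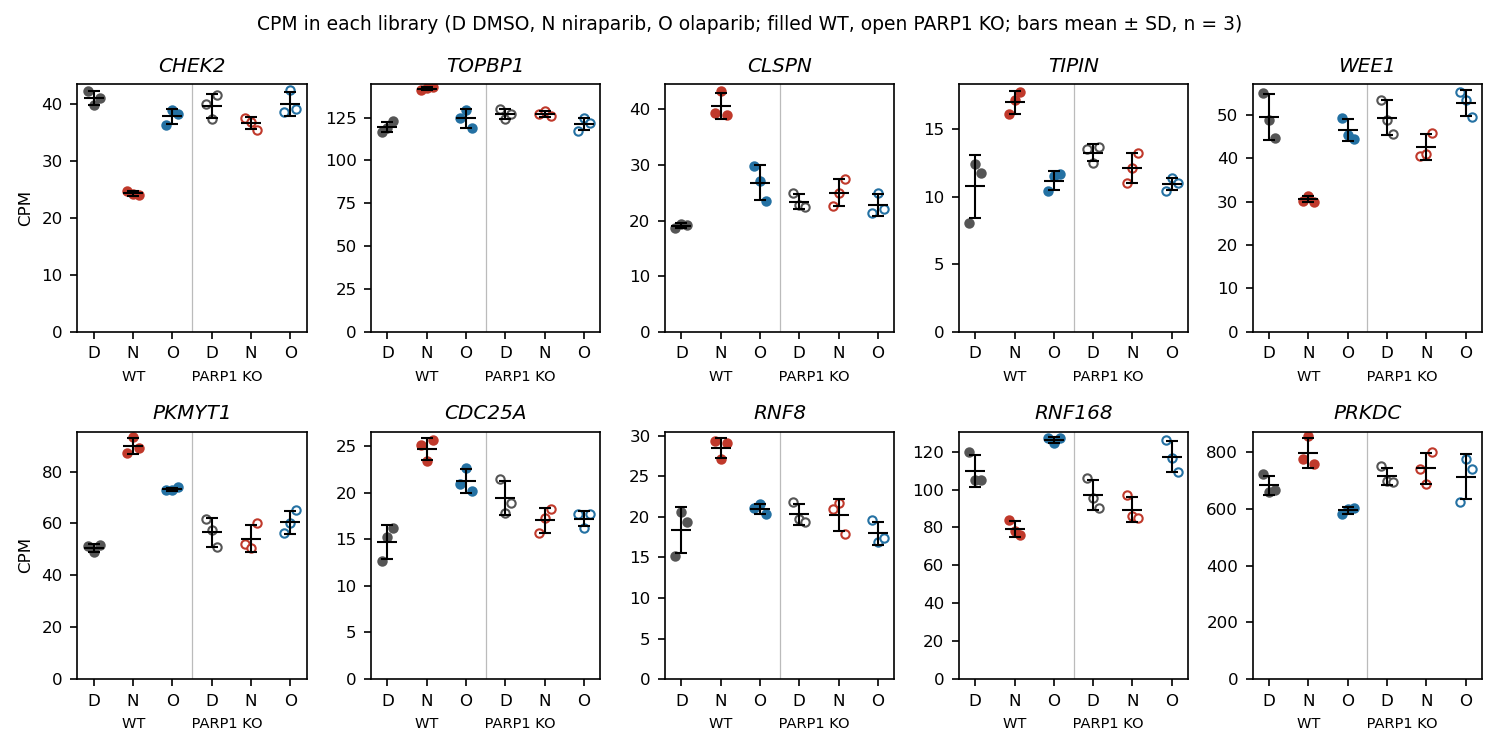
CPM of 10 genes in each of the 18 libraries (points, filled for WT and open for PARP1 KO; D is DMSO, N niraparib, O olaparib; bars mean ± SD, n = 3). In WT cells the niraparib libraries of all 10 genes lie apart from the DMSO libraries, below them for CHEK2, WEE1 and RNF168 and above them for the rest; in PARP1 KO cells the niraparib and DMSO libraries of each gene overlap.

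All 3 genes of CDK control changed by more than 1.5-fold with niraparib in WT cells, and the inhibitory kinases moved in opposite directions. PKMYT1, the membrane-bound kinase that inhibits CDK1 (ENSG00000127564, chromosome 16 from 2968024 to 2980479, minus strand), had 51.2, 48.9 and 51.7 CPM with DMSO, 86.99, 93.1 and 89.2 with niraparib and 72.9, 72.9 and 73.9 with olaparib. The groups were far apart, with olaparib in between. The change was 0.83 (SE 0.048, adjusted P = 1.1e-11) with niraparib, 0.54 (SE 0.049, adjusted P = 9.6e-08) with olaparib and 0.29 (SE 0.048, adjusted P = 5.3e-05) between them. With PARP1 KO the libraries had 61.6, 57.4 and 50.7 CPM with DMSO, 51.97, 50.3 and 60.1 with niraparib and 56.4, 59.99 and 65.2 with olaparib, overlapping throughout. The interaction was -0.89 (SE 0.093, adjusted P = 3.2e-09) for niraparib and -0.44 (SE 0.093, adjusted P = 0.0061) for olaparib.

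WEE1, the nuclear kinase that inhibits CDKs (ENSG00000166483, chromosome 11 from 9573670 to 9593457, plus strand), had 55.1, 48.9 and 44.6 CPM with DMSO, 30.3, 31.4 and 30.03 with niraparib and 49.3, 45.4 and 44.5 with olaparib. Niraparib libraries were below all others, and the olaparib and DMSO libraries overlapped. WEE1 fell with niraparib, at -0.69 (SE 0.068, adjusted P = 3.5e-08), and was at -0.09 (SE 0.068, adjusted P = 0.42) with olaparib and at -0.61 (SE 0.069, adjusted P = 4.4e-07) between the drugs. The PARP1 KO libraries had 53.5, 48.9 and 45.5 CPM with DMSO, 40.6, 40.999 and 45.9 with niraparib and 55.4, 53.3 and 49.5 with olaparib. The niraparib and DMSO libraries overlapped by a narrow margin, at -0.21 (SE 0.069, adjusted P = 0.32), which did not pass. The niraparib interaction was 0.48 (SE 0.099, adjusted P = 3.2e-04).

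CDC25A, the phosphatase that removes the inhibitory mark and is a target of both checkpoint kinases (ENSG00000164045, chromosome 3 from 48157146 to 48188402, minus strand), had 12.7, 15.2 and 16.2 CPM with DMSO, 25.1, 23.4 and 25.6 with niraparib and 20.9, 22.7 and 20.2 with olaparib. Both drugs lay above DMSO without overlap. The rise was 0.74 (SE 0.083, adjusted P = 2.5e-07) with niraparib and 0.53 (SE 0.084, adjusted P = 1.1e-04) with olaparib. Untreated PARP1 KO cells had 21.4, 17.9 and 18.9 CPM, and 15.6, 17.3 and 18.3 with niraparib and 17.7, 16.2 and 17.7 with olaparib. The olaparib libraries were below the DMSO libraries without overlap, at -0.17 (SE 0.086, adjusted P = 0.25), which did not pass. The interactions were -0.92 (SE 0.12, adjusted P = 2.3e-07) for niraparib and -0.70 (SE 0.12, adjusted P = 7.8e-04) for olaparib, so that CDC25A had the largest olaparib interaction of the 32 genes.

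CDC25A was also the gene that differed between the genotypes without drug. Of the 32 genes, it alone passed between PARP1 KO and WT with DMSO, against 1.39% of all genes, at 0.40 (SE 0.086, adjusted P = 0.013). Every PARP1 KO DMSO library was above every WT DMSO library, but the call was lost without PARP1 KO DMSO replicate 1 (0.32, adjusted P = 0.11, edgeR) or WT DMSO replicate 1 (0.31, adjusted P = 0.15). Without WT DMSO replicate 2, CHEK1 passed as well. CLSPN was at 0.29 (SE 0.081, adjusted P = 0.061), CHEK1 at 0.18 (SE 0.052, adjusted P = 0.085) and TIPIN at 0.29 (SE 0.11, adjusted P = 0.19) in the same comparison, and none of them passed; CLSPN and CHEK1 did in DESeq2.

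At the break site, niraparib raised the first ubiquitin ligase of the relay, RNF8, and lowered the next, RNF168, in WT cells. RNF8 (ENSG00000112130, chromosome 6 from 37353979 to 37394734, plus strand) had 15.1, 20.6 and 19.4 CPM with DMSO, 29.3, 27.1 and 29.1 with niraparib and 21.04, 21.6 and 20.3 with olaparib. The niraparib libraries were above both other groups, which overlapped, and DMSO replicate 1 was the lowest of all 9. RNF8 changed by 0.62 (SE 0.088, adjusted P = 6.8e-06) with niraparib, by 0.51 and under 1.5-fold without WT DMSO replicate 1, and by 0.19 (SE 0.089, adjusted P = 0.17) with olaparib, which passed without WT DMSO replicate 2. In PARP1 KO cells it had 21.8, 19.7 and 19.4 CPM with DMSO, 20.99, 21.7 and 17.9 with niraparib and 19.6, 16.9 and 17.4 with olaparib, with overlap between the groups. Its niraparib interaction, -0.63 (SE 0.13, adjusted P = 2.0e-04), came under 1.5-fold without WT DMSO replicate 1 (-0.52), PARP1 KO DMSO replicate 1 (-0.58) or PARP1 KO niraparib replicate 3 (-0.55).

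RNF168, which extends the marks on the histone (ENSG00000163961, chromosome 3 from 196468783 to 196503768, minus strand), had 119.8, 105 and 105 CPM with DMSO, 83.7, 78.2 and 75.9 with niraparib and 127, 125 and 127 with olaparib. The drugs lay on opposite sides of DMSO, without overlap. The change was -0.47 (SE 0.056, adjusted P = 4.7e-07) with niraparib and 0.20 (SE 0.055, adjusted P = 0.011) with olaparib, and the direct difference, -0.68 (SE 0.056, adjusted P = 5.3e-09), was the largest between the drugs among the 32 genes. The olaparib rise was lost without WT olaparib replicate 1 or 3 or WT DMSO replicate 2 or 3 (adjusted P up to 0.075, edgeR). Values in PARP1 KO cells were 106, 95.4 and 90.04 CPM with DMSO, 97.2, 85.9 and 85.2 with niraparib and 126, 117 and 109 with olaparib. There the olaparib libraries lay above DMSO without overlap and the niraparib libraries overlapped DMSO. Olaparib raised it by 0.27 (SE 0.066, adjusted P = 0.012), a call lost without PARP1 KO olaparib replicate 1 or 2 or PARP1 KO DMSO replicate 2 or 3 (adjusted P up to 0.076). The olaparib interaction was 0.07 (SE 0.090, adjusted P = 0.74), with a 95% interval from -0.11 to 0.26, and the niraparib interaction 0.35 (SE 0.091, adjusted P = 0.0040).

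Downstream of these marks, TP53BP1 fell with olaparib, RIF1 rose with niraparib and MAD2L2 rose with both. TP53BP1, which protects broken ends from resection, averaged 142 ± 3.98 CPM untreated, 147 ± 3.43 under niraparib and 112 ± 7.2 under olaparib in WT cells (SD, n = 3). It fell with olaparib, at -0.33 (SE 0.050, adjusted P = 5.2e-05), was at 0.05 (SE 0.050, adjusted P = 0.47) with niraparib, and differed between the drugs by 0.39 (SE 0.050, adjusted P = 2.7e-06). RIF1, its effector, rose with niraparib, by 0.36 (SE 0.057, adjusted P = 2.4e-05), from 70.8 ± 4.82 to 90.6 ± 5.8 CPM, with an interaction of -0.35 (SE 0.088, adjusted P = 0.0027); olaparib left it at 0.06 (SE 0.057, adjusted P = 0.49). MAD2L2, the shieldin subunit also known as REV7, rose with both, from 38.9 ± 1.57 CPM to 55.2 ± 3.07 with niraparib and 52.8 ± 1.67 with olaparib, by 0.50 (SE 0.058, adjusted P = 3.4e-07) and 0.44 (SE 0.058, adjusted P = 1.2e-05). Between the drugs MAD2L2 was at 0.06 with a 95% interval from -0.06 to 0.18, and its niraparib interaction was -0.33 (SE 0.089, adjusted P = 0.0046). BRCC3, a deubiquitinase that trims the marks, passed only between the drugs, higher with niraparib by 0.37 (SE 0.083, adjusted P = 0.0013). Against DMSO it was at 0.19 (SE 0.082, adjusted P = 0.079) with niraparib, which passed without WT niraparib replicate 2 or WT DMSO replicate 3, and at -0.18 (SE 0.083, adjusted P = 0.14) with olaparib, which passed without WT DMSO replicate 1. Its niraparib interaction, -0.25 (SE 0.11, adjusted P = 0.12), passed without PARP1 KO DMSO replicate 1 or WT DMSO replicate 3. MDC1, the scaffold at the head of the relay, passed in no comparison, at -0.04 (SE 0.065, adjusted P = 0.72) with niraparib and -0.03 (SE 0.065, adjusted P = 0.79) with olaparib. Under another setting, no filter on low counts, its niraparib interaction passed (0.20, adjusted P = 0.040, edgeR).

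In end joining, the Ku subunits fell with niraparib and the kinase they recruit rose. PRKDC (ENSG00000253729, chromosome 8 from 47773108 to 47960183, minus strand) had 721, 659 and 667 CPM with DMSO, 774, 858 and 757 with niraparib and 582, 601 and 601 with olaparib. The drugs lay on opposite sides of DMSO, and the 3 groups did not overlap. The change was 0.22 (SE 0.053, adjusted P = 0.0017) with niraparib and -0.19 (SE 0.053, adjusted P = 0.011) with olaparib, and the drugs differed by 0.42 (SE 0.053, adjusted P = 2.0e-06). The fall with olaparib was lost without WT olaparib replicate 1 (adjusted P = 0.067, edgeR). In PARP1 KO cells PRKDC had 750.1, 699.6 and 694 CPM with DMSO, 742, 687 and 799 with niraparib and 623, 776 and 741 with olaparib. Those groups overlapped, and neither interaction passed, at -0.17 (SE 0.096, adjusted P = 0.24) for niraparib and 0.20 (SE 0.096, adjusted P = 0.32) for olaparib, though the latter passed without PARP1 KO olaparib replicate 1.

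XRCC6 fell with both drugs, from 352 ± 22 CPM to 279 ± 15.7 with niraparib and 297 ± 14.6 with olaparib (SD, n = 3), at -0.34 (SE 0.055, adjusted P = 3.4e-05) and -0.24 (SE 0.055, adjusted P = 0.0034). It also fell with olaparib in PARP1 KO cells, from 387 ± 14.9 to 333 ± 6.95 CPM, at -0.22 (SE 0.047, adjusted P = 0.0053). Its interaction was 0.30 (SE 0.072, adjusted P = 0.0020) for niraparib and 0.02 (SE 0.072, adjusted P = 0.92) for olaparib, the latter with a 95% interval from -0.12 to 0.17. The other Ku subunit, XRCC5, fell from 378 ± 23.8 to 315 ± 17.7 CPM with niraparib, at -0.27 (SE 0.054, adjusted P = 3.9e-04). Its niraparib interaction, 0.22 (SE 0.073, adjusted P = 0.025), was lost when any 1 of 7 libraries was left out (PARP1 KO niraparib replicates 1 and 2, PARP1 KO DMSO replicates 1 and 2, WT niraparib replicate 2, and WT DMSO replicates 2 and 3), with an adjusted P value of up to 0.088. XRCC5 was lower with niraparib than with olaparib, at -0.17 (SE 0.054, adjusted P = 0.020), a call lost without WT olaparib replicate 1 or 2 or WT niraparib replicate 2 (up to 0.12), and its olaparib change, -0.10 (SE 0.054, adjusted P = 0.24), passed without WT DMSO replicate 1.

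DCLRE1C, the Artemis nuclease that opens hairpins and trims ends, fell with both drugs, at -0.24 (SE 0.064, adjusted P = 0.0043) with niraparib and -0.23 (SE 0.065, adjusted P = 0.013) with olaparib. Its olaparib call was lost without WT olaparib replicate 1 or 3 (adjusted P up to 0.063, edgeR). The niraparib interaction of DCLRE1C did not pass, but did with filterByExpr (0.23, adjusted P = 0.036, edgeR) and in DESeq2 (0.23, adjusted P = 0.045). LIG4, the ligase of the pathway, averaged 34.01 ± 1.45 CPM untreated, 33.9 ± 1.86 under niraparib and 28.6 ± 0.49 under olaparib (SD, n = 3). It fell with olaparib alone among the WT treatments tested against DMSO, at -0.25 (SE 0.060, adjusted P = 0.0058), and the drugs differed by 0.24 (SE 0.060, adjusted P = 0.0033). XRCC4, the partner of LIG4, and PAXX passed in no comparison. With niraparib in WT cells XRCC4 was at 0.03 (SE 0.10, adjusted P = 0.86) and PAXX at 0.05 (SE 0.076, adjusted P = 0.66).

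**Figure D4:**
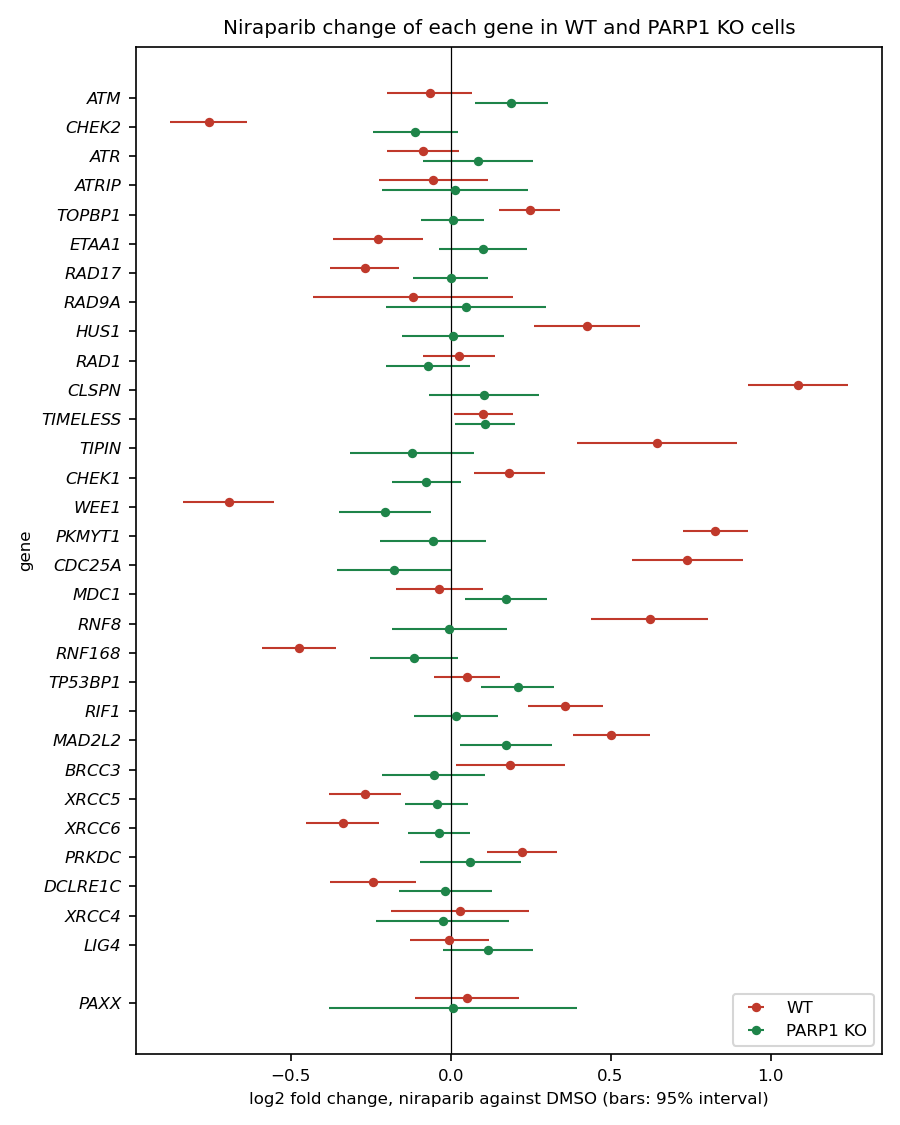
Log2 fold change with niraparib against DMSO in WT (red) and PARP1 KO cells (green) for 31 genes, with 95% intervals. In WT the values run from -0.76 (CHEK2) to 1.09 (CLSPN); in PARP1 KO every interval lies between -0.38 and 0.39.

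Beside the 32 genes, 51 further checkpoint, break-site and end joining genes were counted. Niraparib raised 15 and lowered 18 of them in WT cells (median log2 fold change -0.096), against 19.9% and 18.1% of all genes, and olaparib raised 11 and lowered 4 (median 0.048), against 11.2% and 7.77%. Among those with the largest niraparib changes at a mean of at least 1 CPM were the CDK inhibitor CDKN1A at 2.23, the mitotic phosphatase CDC25C at -0.91, the DNA end-cleaning enzyme TDP1 at -0.87, and at 0.77 each the phosphatase PPM1D and RAD50 of the MRE11 complex. Of 50 tested in PARP1 KO cells, 0 passed with niraparib in edgeR (9 at an unadjusted P value below 0.05), where 0.109% of all genes did. CDC25C and CDC25A, phosphatases of the same family, therefore stood on opposite sides of DMSO with niraparib in WT cells.

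Genes of the cell cycle moved in the same comparisons. With niraparib in WT cells, 26 of 37 S phase genes rose and 0 fell (edgeR; 29 had an unadjusted P value below 0.05), with a median of 0.40, and their summed level was between 2431 and 2687 CPM with DMSO and between 3301 and 3421 CPM with niraparib. Of 51 G2/M genes, 48 fell and 1 rose, with a median of -0.99, and the sum was between 12362 and 13107 CPM with DMSO and between 6812 and 7161 CPM with niraparib. With olaparib, 23 S phase genes rose and 1 fell (median 0.22), while 30 G2/M genes fell and 1 rose (median -0.21). With niraparib in PARP1 KO cells, 1 S phase and 1 G2/M gene passed, both lower; with olaparib, 10 S phase genes fell and 2 rose, and 2 G2/M genes fell and 2 rose. Between the genotypes with DMSO, 13 S phase genes were higher in PARP1 KO and 0 lower (24 at an unadjusted P value below 0.05, edgeR), in the comparison in which CDC25A passed, and 2 G2/M genes were lower. Of the 8 luminal markers, 7 fell with each drug in WT cells, and 0 with niraparib and 4 with olaparib in PARP1 KO cells (3 and 5 at an unadjusted P value below 0.05, edgeR). The part of these shifts in the changes of the 32 genes was not tested. In bulk RNA, a change in the share of cells in a phase and a change in the RNA per cell cannot be told apart.

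**Figure D5:**
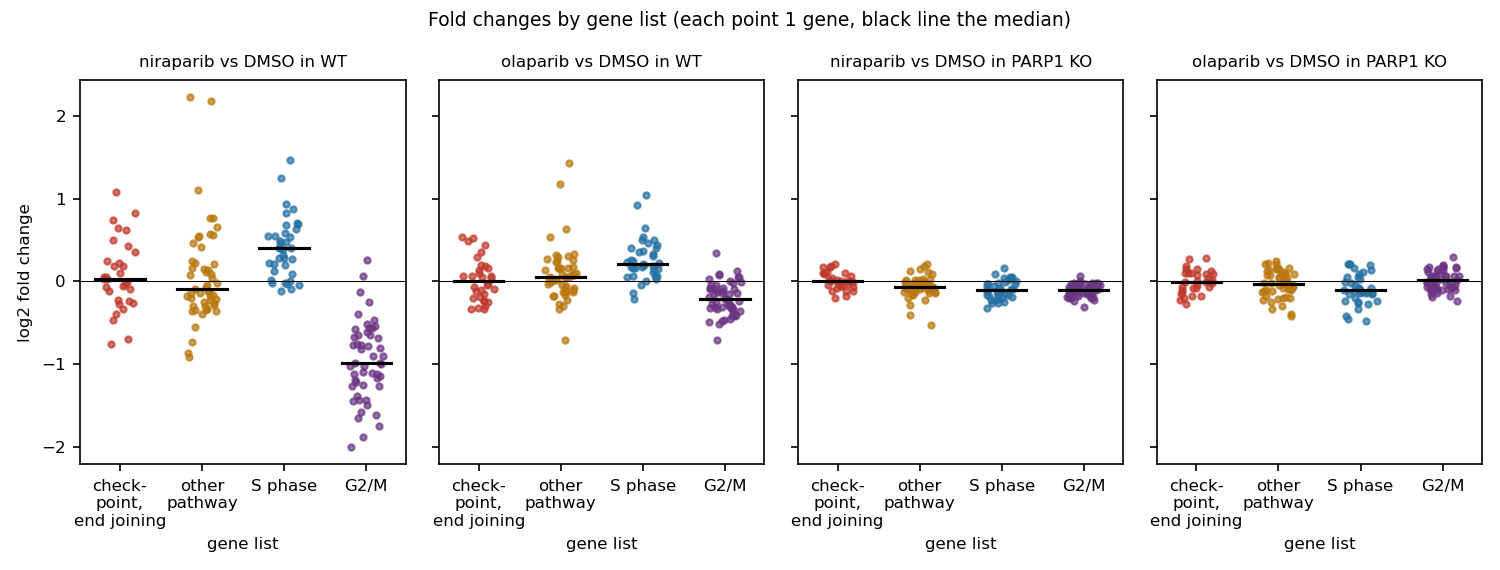
Log2 fold change of each gene (points) by list, for each drug against DMSO in each genotype; black lines are medians. With niraparib in WT the medians are 0.028 for the checkpoint and end joining genes, -0.096 for the other pathway genes, 0.40 for S phase and -0.99 for G2/M genes, while in PARP1 KO with niraparib they are 0.0061, -0.064, -0.10 and -0.099 in the same order.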

How the data were processed

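RNA of 18 T47D libraries (3 per group) was analysed. The authors deposited raw read counts per gene for each library: reads were trimmed with Trimmomatic, mapped to GRCh38 with STAR, passed through Picard MarkDuplicates (the deposited files are named as deduplicated, but the sources do not state that marked reads were removed, and the counting command does not skip them) and counted over exons with featureCounts 2.0.0 (reverse strand, primary alignments, Ensembl release 96). Reads on exons of more than 1 gene of a strand were not counted, and genes with near-identical copies are uncertain. Labels and paper differ on RNA input, medium and extraction kit, and the transcriptomics section of the paper does not mention a knockout. Coordinates are those of the deposited annotation.

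Differences were tested with the quasi-likelihood F test of edgeR 4.0.16 in R 4.3.3, with TMM factors and robust dispersions, for genes whose counts summed to more than 10 in a fit, and P values were adjusted by Benjamini-Hochberg over all of these. The WT and PARP1 KO fits used 9 libraries each; interactions and the genotype comparison used all 18. Intervals are at 95%. The biological coefficient of variation was 7.05% for WT libraries and 7.42% for PARP1 KO libraries. Replicate pairs of all groups differed by more than sampling noise (chi-square per gene 3.00 to 17.3 over 18 pairs). CPM were scaled by TMM over all libraries; RPKM are CPM per kilobase of exon not shared with another gene of the strand. The scripts were tested on simulated counts.

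The genes and lists were chosen with earlier results of these data known. Values in every library are printed for genes that passed with a change of more than 1.5-fold and for the gene with the lowest adjusted P value of each remaining role; up to 6 other pathway genes are named by the size of their niraparib change in WT. A result that fell under this rule is not reported here. Alternatives were RLE size factors, filterByExpr or no filter, DESeq2 1.42.0, a block for the replicate number, 1 fit of all 18 libraries, other thresholds, each library left out in turn and, chosen after seeing the data, WT DMSO replicate 1 and WT niraparib replicate 2 left out together. Niraparib was not compared with olaparib in PARP1 KO cells.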

Additional observations from a re-analysis of the deposited data

Results flagged for a closer look

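The change with niraparib differed between PARP1 KO and WT cells for 18 of the genes by a direct test of the difference (interaction term, edgeR adjusted P value below 0.05), given on the log2 scale as the change in PARP1 KO minus that in WT. It was higher in 8 and lower in 10 of the 32, against 10.4% and 12.5% of all genes. It was positive for CHEK2 (0.64), WEE1 (0.48), RNF168 (0.35), ETAA1 (0.32), XRCC6 (0.30), RAD17 (0.26), ATM (0.25) and XRCC5 (0.22). Negative values were found for CLSPN (-0.99), CDC25A (-0.92), PKMYT1 (-0.89), TIPIN (-0.77), RNF8 (-0.63), HUS1 (-0.43), RIF1 (-0.35), MAD2L2 (-0.33), CHEK1 (-0.27) and TOPBP1 (-0.25). Those of ATM and XRCC5 were lost when any of several single libraries was left out.

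With olaparib the same test differed for CDC25A (-0.70), CLSPN (-0.53), PKMYT1 (-0.44) and CHEK1 (-0.35), against 1.35% of all genes lower and 0.912% higher. Each genotype is represented by 1 line, so that PARP1 and any other difference between the lines cannot be told apart.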

How the results depend on the processing

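With a change of more than 1.5-fold required as well, the counts of passing genes were 7 (niraparib, WT), 0 (olaparib, WT), 5 (niraparib against olaparib, WT), 0 (olaparib, PARP1 KO), 0 (PARP1 KO against WT), 6 (niraparib interaction) and 1 (olaparib interaction). At an adjusted P value below 0.01 they were 1 for olaparib in PARP1 KO and 0 for PARP1 KO against WT. PARP1 KO against WT gave 3 with no filter, 3 with DESeq2 and 0 with the 2 WT libraries left out. Without PARP1 KO niraparib replicate 3, 0 genes passed with niraparib in PARP1 KO and 17 in the niraparib interaction, the same counts as without PARP1 KO DMSO replicate 3. The median log2 difference between niraparib and olaparib was 0.062 with filterByExpr and 0.056 with the 2 WT libraries left out. Leaving out each library in turn gave 19 to 22 genes with niraparib and 11 to 15 with olaparib in WT, 17 to 20 between the drugs, 0 to 0 with niraparib and 1 to 3 with olaparib in PARP1 KO, 0 to 2 for PARP1 KO against WT, 16 to 18 for the niraparib interaction and 4 to 8 for the olaparib interaction. The medians ranged, in the same order, from 0.0070 to 0.036, -0.018 to 0.026, 0.022 to 0.067, -0.017 to 0.019, -0.020 to 0.016, 0.012 to 0.039, -0.018 to 0.072 and 0.017 to 0.091.

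Over 1121 alternative values of genes that passed, 46 no longer passed and 0 reversed; over 2395 of genes that did not, 49 passed, none with the other sign. The replicate numbers do not pair the libraries: of 45 same-numbered pairs of groups, 16 had deviations correlated above 0.1 (r from -0.57 to 0.59, against -0.63 to 0.68 for different numbers). WT DMSO replicate 1, WT niraparib replicate 2 and PARP1 KO niraparib replicate 3, which stood apart in their groups, deviated alike (r from 0.64 to 0.68). The source of this shared deviation was not tested, and no term for it was fitted. With the replicate number as a block the counts were 19, 14, 20, 0, 2, 1, 18 and 4 in the order above, as without it; over all genes, those passing with niraparib in PARP1 KO went from 24 to 11. The 3 libraries per group at these depths do not resolve changes of XRCC4, RAD9A or PAXX as small as that of CHEK1 with niraparib, and NHEJ1 is not measured.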
